A study of Mus musculus with 42 samples.

Results

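The genes of the LIF and STAT3 signaling pathway were followed through the differentiation of mouse embryonic stem cells (ESCs). They were a list of 10 genes matched by symbol through the GENCODE annotation, namely Lif, Lifr, Il6st, Jak1, Jak2, Stat3, Socs3, Bcl3, Pim1 and Pim3, and all 10 were among the 14296 genes in the files. Matching used no measured values, and each gene had a single row in every library. W9.5 ESCs, a single line of the 129X1/SvJ background, were differentiated without direction into embryoid bodies after withdrawal of LIF. Stranded poly-A RNA libraries were made every 6 h up to 120 h from cultures run in duplicate (A and B), which gave 21 time points and 42 libraries. The cultures had no arm kept in LIF, so that time in culture, formation of embryoid bodies and withdrawal of LIF cannot be told apart.

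Leukemia inhibitory factor (LIF) is a cytokine of the interleukin 6 family that is added to mouse ESC medium to hold the cells undifferentiated. It binds the receptor Lifr together with the shared signaling subunit gp130, the product of Il6st, and the JAK kinases bound to these receptors phosphorylate the transcription factor STAT3. STAT3 then enters the nucleus and activates target genes, among them Socs3, whose product binds the receptor and the kinases and shuts the signal down.

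Values were log2 CPM, that is, reads of a gene scaled to the size of its library, and counted reads per library ranged from 10120972 to 51652434. The duplicates at 96 h stood furthest apart, with a median gap between A and B of 0.41 over all genes, against 0.09 to 0.27 at the other times. The ES cell markers Pou5f1, Nanog, Sox2, Zfp42, Esrrb and Dppa5a, 6 of 6 in the files, summed to between 4420 and 4860 CPM at 0 h, between 2310 and 2640 CPM at 48 h and 2030 CPM in both libraries at 120 h. These markers did not share a direction from 48 h to 120 h. Nanog rose by 1.43 (adjusted p = 1.5e-10, limma) and Esrrb by 1.59 (adjusted p = 6.11e-07, limma). Pou5f1 fell by 1.43 (adjusted p = 1.22e-07, limma), and Zfp42, Sox2 and Dppa5a differed by 0.75, 0 and -0.47. Fibroblast markers, 6 of 7 in the files, summed to between 24.3 and 28.1 CPM at 0 h, between 8.83 and 10.3 CPM at 48 h and between 91.7 and 102 CPM at 120 h, and Col3a1 and Dcn had 0 reads in both libraries at 0 h. The members of this sum moved in opposite directions, since the mean of Thy1 was 4.37 log2 CPM at 0 h and 1.82 at 120 h (adjusted p = 6.98e-08, limma), and that of Col1a1 was 2.4 and 5.9 (adjusted p = 2.45e-12, limma). Primitive endoderm markers, 4 of 6 in the files, summed to between 6.82 and 7.55 CPM at 0 h, to 13.3 CPM at 48 h and to between 41.7 and 43.2 CPM at 120 h. Of these, Dab2 had a higher mean at 48 h than at 0 h (3.45 against 0.5 log2 CPM). The mean of Sox7 was lower at 48 h (-2.29 against 1.47, adjusted p = 2.38e-10, limma), where its libraries held 7 and 4 reads. That of Gata6 was -3.88 against -1.7 (adjusted p = 0.00765, limma). It rested on few reads, 3 and 15 at 0 h and 2 and 1 at 48 h. For Gata4 the means were 1.04 and 1.37, a difference of -0.33 ± 0.26 (SE, adjusted p = 0.273, limma). Neither Gata6 nor Gata4 passed the threshold for calls stated below. Of 4 genes listed as blood cell markers, 2 were in the files, Kdr and Gata1. Their sum was between 1.78 and 2.03 CPM at 0 h and between 0.209 and 0.426 CPM at 48 h. At 120 h it was between 5 and 6.41 CPM. The 2 genes moved in opposite directions from 0 h to 120 h, so their sum is not a measure of blood cells. The mean of Kdr was -3.85 log2 CPM at 0 h and 2.37 at 120 h, and that of Gata1 was 0.83 and -1.05. The part of these cell types in the late levels given below was not tested. In bulk RNA, fewer cells that express a gene and less RNA per cell cannot be told apart.

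The 9-base palindrome TTCNNNGAA, which STAT proteins are known to bind, was sought on the 300 bases around each RefSeq start site, 250 before it and 50 after. All 10 genes had a window and Lifr and Pim1 had 2, giving 12 windows on GRCm38.p6. The motif reads the same on both strands. It lay in 1 of the 12 windows, that of Socs3, and in 8.3% of all 32851 promoter windows. The stricter TTCCNGGAA, which is contained in the first motif, lay in none of the 12 and in 1.15% of all windows. Sequence outside the windows was not searched, so a window without a match does not show that a gene lacks the motif. Of the 250 bases before the Socs3 start site used here, 77 lie in an annotated exon of the gene. Matches are given as a description and not as bound sites. The stretches before the start sites of Socs3 and Bcl3 are shown because these genes had the deepest losses of the list, at chr11:117969452-117969616 and chr7:19822771-19823005, both on the minus strand and 5′ to 3′. They were cut to the longest run of bases that lies in no annotated exon of the gene. The Socs3 stretch lies inside the annotated span of Socs3, and so not upstream of the whole gene. In the sequences, capitals mark the match to TTCNNNGAA.
Socs3: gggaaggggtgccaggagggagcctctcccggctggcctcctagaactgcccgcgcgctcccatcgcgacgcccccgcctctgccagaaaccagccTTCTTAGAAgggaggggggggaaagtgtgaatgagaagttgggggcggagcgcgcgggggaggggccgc
Bcl3: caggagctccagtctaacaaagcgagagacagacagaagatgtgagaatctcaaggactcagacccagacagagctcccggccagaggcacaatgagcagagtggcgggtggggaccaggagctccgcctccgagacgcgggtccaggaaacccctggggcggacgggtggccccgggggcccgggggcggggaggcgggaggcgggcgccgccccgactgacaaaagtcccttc

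All 10 genes varied over the time course (limma moderated F test, Benjamini-Hochberg adjusted p < 0.0001), where 74.6% of all genes did. The same threshold decided each call between times below. With both 96 h libraries left out, 10 of the 10 were again called, against 78.3% of all genes. The weakest case was Jak1 (adjusted p = 4.96e-07, limma) and the strongest was Socs3 (adjusted p = 5.15e-18, limma). The genes differed in the course they took. Socs3, Bcl3 and Stat3 were highest at 0 h and lowest between 30 h and 48 h, Lifr was lowest at 90 h, and Lif, Jak1, Jak2, Pim1 and Pim3 had their highest means between 102 h and 120 h. Times are described as within 2 SE where their means differed by less than 2 SE, taken from the spread between duplicates of that gene over the course. By this measure the 0 h means of Jak1 and Pim3 were within 2 SE of their highest means.

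**Figure D1:**
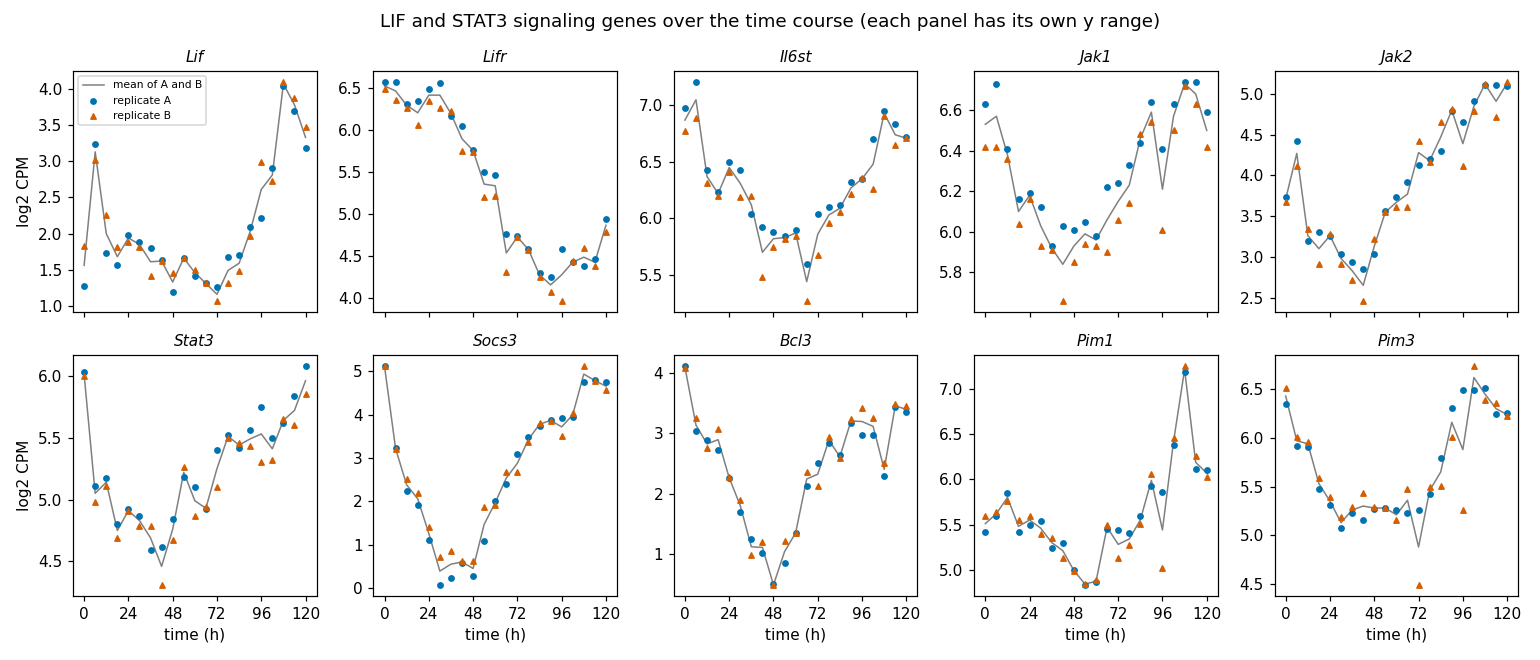
Level of each gene in log2 CPM (y axis, a range of its own in each panel) against time in hours (x axis), with replicate A as circles, replicate B as triangles and a line through the mean of the 2 libraries. The mean of Socs3 was 5.12 at 0 h, 0.39 at 30 h and 4.66 at 120 h, and that of Lifr 6.53 at 0 h and 4.16 at 90 h.

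Lif, the ligand itself (ENSMUSG00000034394.8, chr11:4257557-4272514, plus strand, GRCm38), was low at the start and had an early and a late high point. At 0 h it read 1.28 in replicate A and 1.83 in replicate B, and at 6 h it read 3.24 and 3.02. Both 6 h libraries lay above both 0 h libraries. Lif rose by 1.58 ± 0.22 (log2, SE, 2 libraries per time) from 0 h to 6 h, a fold of 2.98 (adjusted p = 7.81e-07, limma). Without replicate A at 0 h the rise was 1.3 and no longer passed. By 24 h the libraries read 1.98 and 1.89, below both 6 h libraries, and Lif fell by 1.19 ± 0.22 from 6 h to 24 h (adjusted p = 8.11e-05, limma), a call that was lost on leaving out any of the 4 libraries (-1.3 to -1.09). Its lowest mean, 1.16, came at 72 h. It read 4.04 and 4.1 at 108 h, its highest, a mean within 2 SE only of that at 114 h. At 120 h the libraries read 3.18 and 3.47, above both at 48 h (1.19 and 1.46), and Lif rose by 2 ± 0.22 from 48 h to 120 h (adjusted p = 1.49e-08, limma). Against 0 h, the 120 h level was 3.41-fold higher (adjusted p = 1.1e-07, limma). At 96 h replicate A read 2.22 and replicate B 2.99, the widest gap between duplicates for this gene.

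Of the receptor subunits, Lifr, which binds LIF (ENSMUSG00000054263.5, chr15:7090614-7197489, plus strand), followed a course unlike that of the other genes. It held its level through the first day, with 6.58 in A and 6.49 in B at 0 h, 6.58 and 6.36 at 6 h and 6.49 and 6.35 at 24 h. These libraries overlapped, and the means up to 36 h were within 2 SE of the highest. The libraries then read 5.77 and 5.74 at 48 h, 4.25 and 4.08 at 90 h and 4.95 and 4.79 at 120 h. Lifr fell by 1.66 ± 0.16 from 0 h to 120 h, a fold of 3.17 (adjusted p = 1.44e-09, limma). It fell by 0.89 ± 0.16 from 48 h to 120 h (adjusted p = 3.72e-05, limma), a call lost on leaving out any of the 4 libraries (-0.96 to -0.81). The difference from 0 h to 48 h was -0.78 ± 0.16 (adjusted p = 0.000151, limma) and did not pass. Lifr was the only gene of the 10 called lower from 48 h to 120 h.

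Il6st, which encodes gp130 (ENSMUSG00000021756.6, chr13:112464070-112510086, plus strand), dipped in the middle of the course and was back near its starting level at the end. The libraries read 6.98 and 6.77 at 0 h, 5.88 and 5.75 at 48 h and 6.72 and 6.71 at 120 h. Both 48 h libraries were below those of either end. Il6st fell by 1.06 ± 0.15 from 0 h to 48 h (adjusted p = 5.7e-07, limma) and rose by 0.90 ± 0.15 from 48 h to 120 h (adjusted p = 8.21e-06, limma). The later call was lost without 48 h B, 120 h A or 120 h B (0.83 to 0.9). At 120 h its difference from 0 h was -0.16 ± 0.15 (adjusted p = 0.371, limma). The receptor subunits ended the course at different distances from the start, with Lifr at 31.5% and Il6st at 89.5% of the 0 h level.

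The kinases differed in size of response. Jak1 (ENSMUSG00000028530.8, chr4:101152367-101265282, minus strand), used by many cytokine receptors, had the narrowest range of the 10, 1.85-fold between its lowest mean at 42 h and its highest at 108 h. It read 6.63 and 6.42 at 0 h, 6.01 and 5.85 at 48 h and 6.59 and 6.42 at 120 h. The 48 h libraries were the lowest of the 6, and none of the 6 contrasts passed, the nearest being 48 h versus 0 h at -0.59 ± 0.13 (adjusted p = 0.000365, limma). Jak2 (ENSMUSG00000024789.6, chr19:29251828-29313080, plus strand), its relative, read 3.74 and 3.67 at 0 h, 4.42 and 4.12 at 6 h and 3.25 and 3.28 at 24 h. The 6 h libraries were above both others. From 0 h to 6 h the difference was 0.56 ± 0.17 (adjusted p = 0.00687, limma), which did not pass, and from 6 h to 24 h Jak2 fell by 1 ± 0.17 (adjusted p = 3.79e-05, limma), a call lost on leaving out any of the 4 libraries (-1.15 to -0.85). The libraries read 3.04 and 3.22 at 48 h and 5.1 and 5.15 at 120 h. Jak2 rose by 1.99 ± 0.17 over this interval (adjusted p = 2.02e-10, limma), and it ended 2.68-fold above 0 h (adjusted p = 8.71e-08, limma).

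Stat3, the transcription factor of the pathway (ENSMUSG00000004040.10, chr11:100885098-100939540, minus strand), was already lower at 6 h and returned to its starting level by 120 h. It read 6.03 and 6 at 0 h, 5.11 and 4.98 at 6 h and 4.84 and 4.67 at 48 h. No library at 6 h or 48 h reached those at 0 h. Stat3 fell by 0.97 ± 0.13 from 0 h to 6 h, a fold of 1.96 (adjusted p = 5.56e-07, limma), and by 1.26 ± 0.13 from 0 h to 48 h (adjusted p = 4.98e-09, limma). Its lowest mean, 4.46, was at 42 h, within 2 SE of 36 h alone. At 120 h the libraries read 6.08 and 5.85 and overlapped those at 0 h. Stat3 rose by 1.21 ± 0.13 from 48 h to 120 h (adjusted p = 1.43e-08, limma), and its difference from 0 h was then -0.05 ± 0.13 (adjusted p = 0.773, limma). The annotated spans of Stat3 and Stat5a, on opposite strands, share 72 bases at their ends, and the strand setting of the counting is not given in the sources used here.

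Among the target genes, Socs3, the feedback inhibitor (ENSMUSG00000053113.3, chr11:117966079-117970047, minus strand), had the widest range of the 10, 26.6-fold between 30 h and 0 h. It read 5.12 in both libraries at 0 h, 3.23 and 3.2 at 6 h and 1.11 and 1.41 at 24 h. Each step lay wholly below the one before. Socs3 fell by 1.90 ± 0.23 from 0 h to 6 h (adjusted p = 1.12e-07, limma) and by a further 1.95 ± 0.23 from 6 h to 24 h (adjusted p = 1.64e-07, limma). The means from 30 h to 48 h were within 2 SE of each other at the lowest level, and the libraries read 0.27 and 0.63 at 48 h, which was 3.9% of the 0 h level. The lowest library of the course held 15 Socs3 reads and the highest 980. From 54 h the means were higher at each step up to 90 h, from 1.08 and 1.86 to 3.89 and 3.85. By 108 h the libraries read 4.75 and 5.13 and by 120 h 4.75 and 4.57. Socs3 rose by 4.21 ± 0.23 from 48 h to 120 h, an 18.5-fold difference (adjusted p = 2.48e-14, limma). At 120 h the difference from 0 h was -0.46 ± 0.23 (adjusted p = 0.102, limma), although both 120 h libraries were below both at 0 h.

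Bcl3, which encodes an IκB-like cofactor of NF-κB (ENSMUSG00000053175.10, chr7:19808462-19822770, minus strand), had the next widest range, 12.1-fold. It read 4.11 and 4.08 at 0 h, 3.03 and 3.24 at 6 h and 2.25 and 2.27 at 24 h. At 48 h, its lowest point, it read 0.5 and 0.49, and no other time was within 2 SE of it. At 30 h, when Socs3 had its lowest mean, that of Bcl3 was still 1.8. Bcl3 fell by 0.96 ± 0.17 from 0 h to 6 h (adjusted p = 2.8e-05, limma), a call lost on leaving out any of the 4 libraries (-1.07 to -0.86), and by 1.77 ± 0.17 from 24 h to 48 h (adjusted p = 5.1e-09, limma). From 48 h to 120 h, where the libraries read 3.34 and 3.44, it rose by 2.90 ± 0.17 (adjusted p = 9.22e-14, limma). The level at 120 h was 61.5% of that at 0 h, a difference of -0.70 ± 0.17 (adjusted p = 0.00112, limma) that did not pass. At 108 h Bcl3 read 2.29 and 2.5, below both libraries at 102 h and both at 114 h. At that time Lif and Pim1 had their highest means. The highest mean of Jak1 also fell at 108 h, but it was within 2 SE of the means at 7 other times.

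Pim1 and Pim3 encode related serine/threonine kinases that promote survival. Pim1 (ENSMUSG00000024014.6, chr17:29490753-29496112, plus strand) read 5.42 and 5.6 at 0 h, 5.6 and 5.64 at 6 h and 5 and 4.98 at 48 h. Up to 48 h none of its differences passed, the one from 0 h to 48 h being -0.52 ± 0.15 (adjusted p = 0.00403, limma). At 108 h it read 7.19 and 7.26, and no other time was within 2 SE. That level was 328.1% of the 0 h level, and by 114 h the libraries were back at 6.12 and 6.26. Pim1 rose by 1.08 ± 0.15 from 48 h to 120 h (adjusted p = 8.39e-07, limma). Its duplicates were furthest apart at 96 h, with 5.86 in A and 5.02 in B.

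Pim3 (ENSMUSG00000035828.10, chr15:88862186-88865726, plus strand) read 6.35 and 6.51 at 0 h, 5.27 and 5.29 at 48 h and 6.26 and 6.22 at 120 h. It fell by 1.15 ± 0.23 from 0 h to 48 h (adjusted p = 9.15e-05, limma), which lay close to the threshold and was lost on leaving out any of the 4 libraries (-1.23 to -1.07). The difference from 48 h to 120 h was 0.97 ± 0.23 (adjusted p = 0.00074, limma) and did not pass, although the 120 h libraries were above both at 48 h. Pim3 had the widest gap between duplicates of any of the 10, 1.23 at 96 h (6.49 in A and 5.26 in B), and at 72 h it read 5.26 in A and 4.49 in B.

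Taking the list by interval, 1 of 10 genes (Lif) was called higher and 3 (Stat3, Socs3 and Bcl3) lower from 0 h to 6 h, against 11.8% of all genes called higher and 14.5% called lower. From 6 h to 24 h, 0 were called higher and 3 (Lif, Jak2 and Socs3) lower, against 5.64% and 5.76% of all genes. From 24 h to 48 h, 0 were called higher and 1 (Bcl3) lower, against 5.27% and 3.7%. The median difference of the 10 was -0.01 from 0 h to 6 h, -0.61 from 6 h to 24 h and -0.58 from 24 h to 48 h, beside medians of -0.05, -0.01 and 0.02 over all genes.

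The late interval was the one in which most of the list was called. From 48 h to 120 h, 7 of the 10 (Lif, Il6st, Jak2, Stat3, Socs3, Bcl3 and Pim1) were called higher and 1 (Lifr) lower, against 14.2% of all genes called higher and 11% called lower, and the median difference was 1.15 beside 0 over all genes. From 0 h to 48 h, 0 were called higher and 5 (Il6st, Stat3, Socs3, Bcl3 and Pim3) lower, against 14.8% and 15.6% of all genes, with a median of -0.92 beside 0.01. From 0 h to 120 h, 2 (Lif and Jak2) were called higher and 1 (Lifr) lower, against 12.9% and 10.1%. The contrasts share libraries at 0 h, 48 h and 120 h and are not independent of each other.

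**Figure D2:**
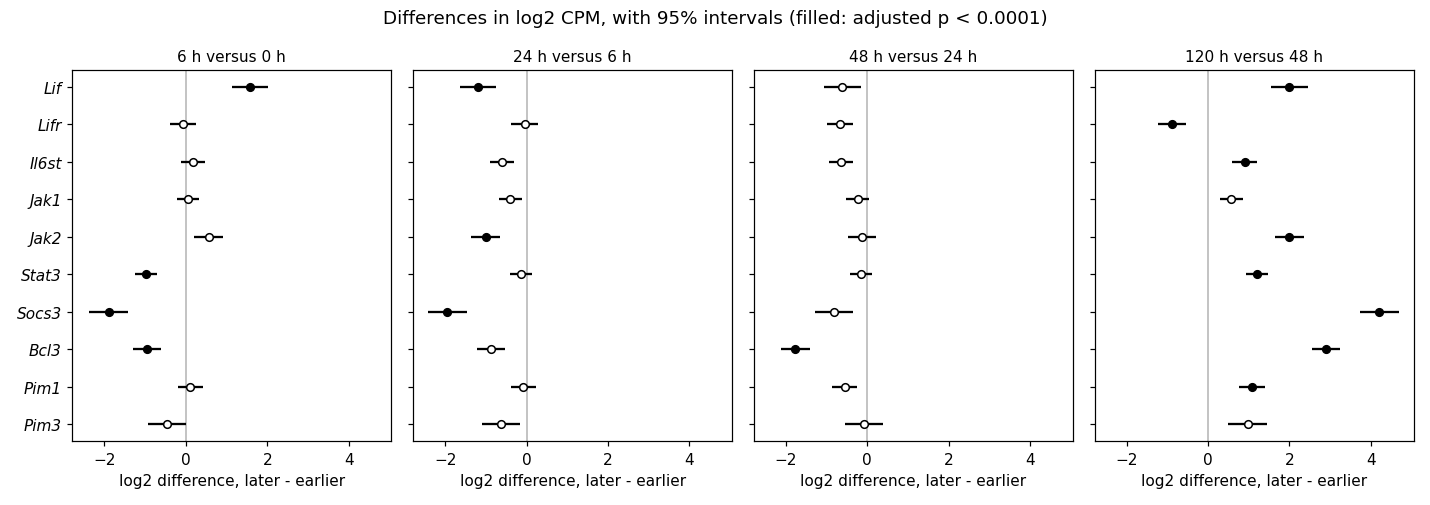
Difference in log2 CPM between the later and the earlier time (x axis) for each gene (y axis) in 4 successive intervals, with 95% intervals as bars and filled points for adjusted p < 0.0001. From 48 h to 120 h the values ran from -0.89 for Lifr to 4.21 for Socs3.

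**Figure D3:**
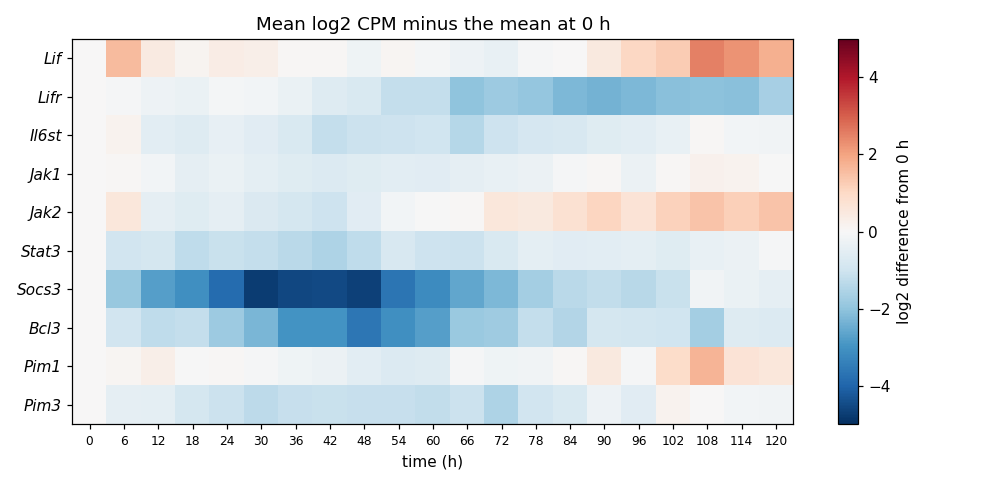
Mean log2 CPM of the 2 libraries minus the mean at 0 h (color, blue below and red above 0 h) for each gene (rows) at each time in hours (columns). Socs3 and Bcl3 carried the deepest losses, -4.73 at 30 h and -3.6 at 48 h, and Lif stood 2.51 above its start at 108 h.

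Levels were compared between genes per kilobase of annotated exon (log2 CPM per kb). At 0 h Pim3 was the highest at 5.15 ± 0.11 (SD, n = 2), followed by Pim1 at 3.76 ± 0.13, Jak1 at 3.67 ± 0.15, Socs3 at 3.59 and Il6st at 3.4 ± 0.14. Jak1 was not separated from Pim1 or Socs3 by the spread of its duplicates, and the SD of Socs3 was 0. Below them came Lifr at 3.1 ± 0.07, Bcl3 at 2.79 ± 0.02, Stat3 at 2.76 ± 0.03, Jak2 at 1.38 ± 0.05 and Lif at -0.57 ± 0.38, and Bcl3 and Stat3 were not separated by their spread. At 48 h Pim3 was again highest at 4 ± 0.02, and Lif at -0.8 ± 0.19, Bcl3 at -0.81 ± 0.01 and Socs3 at -1.09 ± 0.25 were the lowest and lay close together. At 120 h Socs3 ranked 5 of 10 at 3.13 ± 0.13, and Lif, at 1.21 ± 0.2, and Lifr, at 1.44 ± 0.11, were the lowest. Dividing by the longest transcript instead put Jak1 (4.23) above Pim1 (4.08) and Stat3 (3.42) above Lifr (3.26) at 0 h, and Stat3 (3.37) above Socs3 (3.31) at 120 h, so these orders depend on which transcripts were present.

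For each gene, the genes with the most similar course were named by Pearson's r between means over the 21 time points. All means come from the same 42 libraries, and r describes likeness of shape and not of size. Socs3 was most like Rab11fip5 (r = 0.979), Tle3 (0.97) and Il10rb (0.964). Stat3 was also most like Rab11fip5 (0.939), then Vegfa (0.938) and Lclat1 (0.93), and Stat3 and Socs3 had r = 0.91 with each other. Lifr was most like Kat2b (0.979), Gfod1 (0.977) and Sall1 (0.975), and its r with the other 9 genes lay between -0.76 for Jak2 and 0.14 for Il6st. Jak2 was most like Dsp (0.974), Zfp469 (0.972) and Fam160a1 (0.971), and Il6st like Aff1 (0.971), Synj2 (0.93) and Zfp704 (0.93). Bcl3 was most like Oplah (0.953), Zadh2 (0.944) and Nacc2 (0.942), Jak1 like Hspg2 (0.952), Frmd6 (0.94) and Me1 (0.939), and Lif like Dusp14 (0.951), Acbd3 (0.945) and Ccdc120 (0.941). Pim3 was most like Cotl1 (0.933), Tmem37 (0.923) and Hcfc1r1 (0.918), and Pim1 like Faf2 (0.921), Pdcl3 (0.918) and Mpped2 (0.91).

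A wider list held 45 further genes of the pathway, of which 38 were in the files and 26 were called in at least 1 of the 6 contrasts, where 56% of all genes were. From 0 h to 6 h, 6 of the 38 were called higher and 9 lower, against 11.8% and 14.5% of all genes. From 48 h to 120 h, 11 were called higher and 3 lower, against 14.2% and 11%. From 0 h to 48 h, 3 were called higher and 14 lower, against 14.8% and 15.6%. Of the related ligands, Il6, Il11, Osm, Cntf, Il27 and Ebi3 were not among the genes analysed, nor was the receptor gene Osmr.

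The strongest early response among the receptors was that of Il6ra, the binding subunit for interleukin 6, which signals through gp130 as LIF does. It read -0.2 and -0.38 at 0 h, 4.02 and 3.76 at 6 h, 2.28 and 2.1 at 12 h and 0.03 and -0.06 at 18 h. By 18 h the level was close to that at 0 h. Il6ra rose by 4.18 ± 0.44 from 0 h to 6 h, 18.1-fold (adjusted p = 8.19e-09, limma), and fell by 4.19 ± 0.44 from 6 h to 24 h (adjusted p = 1.72e-08, limma). Lif rose in the same 6 h and was lower again by 24 h.

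Further STAT genes were lower early on. Stat2, Stat4, Stat5a, Stat5b and Stat6 were called lower from 0 h to 6 h, and the same 5 were called lower from 0 h to 48 h. Of all genes, 14.5% and 15.6% were called lower in these intervals. Stat5a and Stat5b, which lie beside Stat3 at chr11:100859351-100885169 and chr11:100780731-100850724, encode closely related proteins, and reads from matching stretches may be uncertain between them. Stat5a read 3.31 and 3.13 at 0 h, 0.35 and 0.16 at 48 h and 3.29 and 3.09 at 120 h. The 48 h libraries lay far below both ends, which overlapped. Stat5a fell by 2.97 ± 0.2 from 0 h to 48 h (adjusted p = 1.45e-12, limma) and rose by 2.93 ± 0.2 from 48 h to 120 h (adjusted p = 2.42e-12, limma). Stat5b fell by 2.28 ± 0.21 (adjusted p = 5.64e-10, limma) and rose by 2.31 ± 0.21 (adjusted p = 6.18e-10, limma) over the same intervals. Over the 21 means, Socs3 had r = 0.91 with Stat5a and 0.94 with Stat5b. Stat2 fell by 1.62 ± 0.13 from 0 h to 6 h (adjusted p = 4.16e-11, limma).

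Of the 14 further inhibitors of the pathway, 1 was called higher and 1 lower from 0 h to 6 h, against 11.8% and 14.5% of all genes. Socs5, a relative of Socs3, rose by 1.35 ± 0.15 (adjusted p = 3.29e-08, limma) where Socs3 fell. Ptpn6, the phosphatase SHP-1, fell by 1.77 ± 0.23 (adjusted p = 3.81e-07, limma). Cish, another gene of the SOCS family, followed the dip, falling by 1.51 ± 0.18 from 0 h to 48 h (adjusted p = 3.54e-08, limma) and rising by 1.30 ± 0.18 from 48 h to 120 h (adjusted p = 5.23e-07, limma). Among the JAK kinases outside the list, Jak3 fell by 2.33 ± 0.2 from 0 h to 48 h (adjusted p = 9.51e-11, limma) and rose by 2.47 ± 0.2 from 48 h to 120 h (adjusted p = 3.99e-11, limma). Tyk2 also fell from 0 h to 48 h, by 0.88 ± 0.13 (adjusted p = 1.24e-06, limma), but its difference from 48 h to 120 h was -0.1 ± 0.13 (adjusted p = 0.546, limma), and it was lower at 120 h than at 0 h by 1.97-fold (adjusted p = 3.04e-07, limma).

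Of 6 further genes known to lie downstream of LIF in ESCs, 3 (Gbx2, Junb and Myc) were called higher from 0 h to 6 h. In this interval 1 (Klf4) was called lower, so that this group did not share a direction. Of all genes, 11.8% were called higher and 14.5% lower. Klf4, a pluripotency factor, read 8.4 and 8.46 at 0 h, 3.14 and 3.22 at 48 h and 5.99 and 5.9 at 120 h. It fell by 5.25 ± 0.21 from 0 h to 48 h, 37.9-fold (adjusted p = 1.91e-17, limma), and its lowest mean, 2.42, was at 72 h, when Socs3 read 3.1 and 2.67. Tfcp2l1, another pluripotency factor, differed by -0.14 ± 0.19 from 0 h to 6 h (adjusted p = 0.569, limma) and fell by 3.14 ± 0.19 from 0 h to 48 h (adjusted p = 1.49e-13, limma). Klf4 rose by 2.76 ± 0.21 (adjusted p = 1.27e-11, limma) and Tfcp2l1 by 2.27 ± 0.19 (adjusted p = 1.19e-10, limma) from 48 h to 120 h. Junb, an AP-1 subunit, rose by 1.16 ± 0.15 from 0 h to 6 h (adjusted p = 1.68e-07, limma) and by 2.36 ± 0.15 from 48 h to 120 h (adjusted p = 2.33e-13, limma), with its highest mean, 7.04, at 108 h. Myc, a growth regulator, rose by 3.15 ± 0.34 from 0 h to 6 h (adjusted p = 1.42e-08, limma) and fell by 2.88 ± 0.34 from 48 h to 120 h (adjusted p = 6.55e-08, limma), opposite to Socs3 in both intervals.

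**Figure D4:**
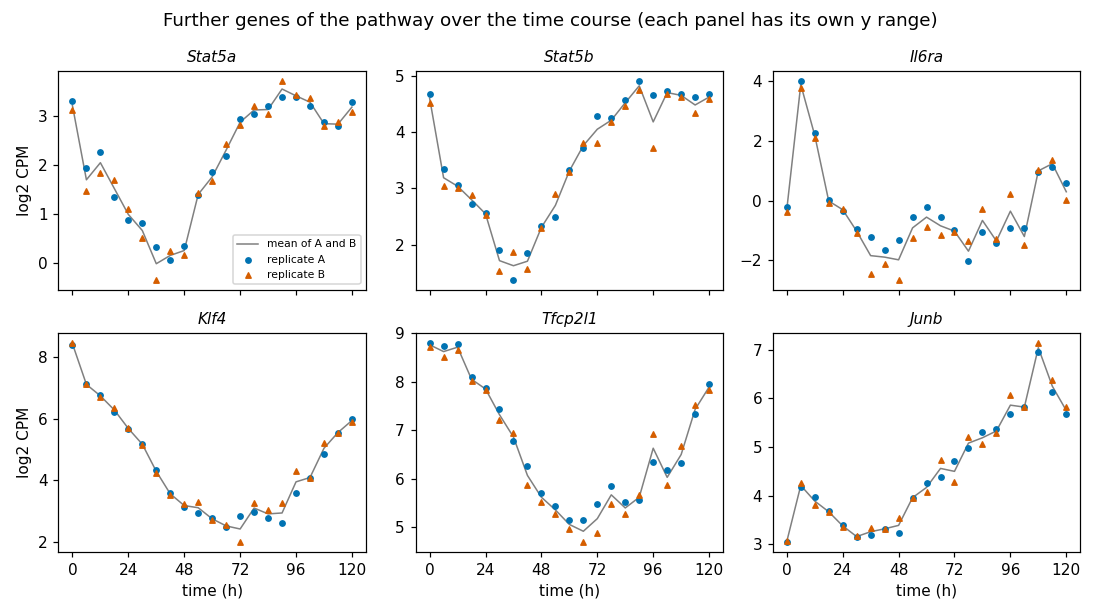
Level of 6 further genes of the pathway in log2 CPM (y axis, a range of its own in each panel) against time in hours (x axis), with replicate A as circles, replicate B as triangles and a line through the mean. Il6ra peaked at 6 h with 4.02 and 3.76, Stat5a and Stat5b had their lowest means at 36 h, and Klf4 had its lowest at 72 h.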

How the data were processed

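Poly-A RNA from W9.5 ESCs was sequenced with a strand-specific kit at 21 time points in biological duplicate. The authors used Trim Galore for trimming, TopHat2 for alignment (mm10), HTSeq for counts on GENCODE vM2, edgeR for library size normalization and voom for the log transform. Versions of these tools are not given in the sources used here. The deposited values are log2 CPM with the voom offset of 0.5 reads. Reads recovered from these values were whole (largest deviation 2.91e-08), and 3 reads equalled 0.057 to 0.316 CPM. Intervals cover the spread between these 2 cultures, and values near 3 reads depend on the offset. Time and replicate were taken from the labels.

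Genes were matched to GENCODE vM21 on GRCm38 (14177 of 14296 matched), and promoter sequences were those of RefSeq. The deposited log2 values were fitted with limma 3.58.1 in R 4.3.3 (lmFit, eBayes with trend) with a factor of 21 time points over all 42 libraries and 21 residual degrees of freedom. P-values were adjusted by Benjamini-Hochberg over all genes for every contrast separately, with a threshold of 0.0001. Errors after ± are SE for differences and SD for levels, and 2 SE in a course used the pooled SD between duplicates. Figures and summaries were made with Python 3.11.15, numpy 2.4.6, pandas 2.3.3 and matplotlib 3.10.9. The fit was tested on simulated data.

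All 10 genes were named, genes of the wider list only if called in at least 1 contrast, and for each of the 10 the 3 genes with the highest r. A gene of the wider list is not reported here by name. The genes and lists were chosen with earlier results of these data known. Alternatives were a replicate block, the contrast's own 4 libraries, voom weights, no trend, other scalings, an offset of 2 reads, a filter on low values, adjusted p < 0.05, a joint correction, each library left out and, chosen after seeing the data, both 96 h libraries left out.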

Additional observations from a re-analysis of the deposited data

How the results depend on the processing

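All 10 genes were called over the time course under each alternative with a course test, which were all but the 4-library fits and the joint correction. Of the 60 differences (10 genes in 6 contrasts), the replicate block left 55 on the same side of the threshold and brought 5 more past it. Same-letter residuals correlated by 0.08 on average (210 pairs of times, 68.6% positive, lowest -0.474). This weak, mostly positive correlation does not settle whether letters A and B pair the libraries. Over all genes, the block raised the number called in each contrast, as in 4291 against 3762 for 6 h versus 0 h. With the replicate block the count of the 10 called lower from 24 h to 48 h was 2, not 1. Counts that moved by over 1.5 times were as follows. With only the 4 libraries of a contrast, 0 were called higher from 0 h to 6 h, 1 lower from 6 h to 24 h, 2 lower from 24 h to 48 h and 1 higher from 0 h to 120 h. Scaling by counted reads alone, which moved the median of all genes by -0.219 from 0 h to 6 h, 0.173 from 48 h to 120 h and -0.196 from 0 h to 48 h, gave 1 lower from 6 h to 24 h and 0 lower from 48 h to 120 h. With voom weights 2 were lower from 0 h to 120 h, and without both 96 h libraries 2 were lower from 24 h to 48 h. At adjusted p < 0.05, 2 were higher from 0 h to 6 h, 7 lower from 6 h to 24 h, 6 lower from 24 h to 48 h, 9 lower from 0 h to 48 h and 2 lower from 0 h to 120 h. Leaving out a library gave 0 to 1 higher from 0 h to 6 h (0 without 0 h A), 1 lower from 6 h to 24 h in each case and 0 lower from 48 h to 120 h in each case.

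Small differences changed sign. Scaled by counted reads alone, Lifr was 0.01 from 6 h to 24 h, and from 0 h to 6 h Il6st was -0.04, Jak1 -0.17 and Pim1 -0.11. With a library left out, Lif ranged from -0.5 to 0.04 from 0 h to 48 h, Lifr from -0.18 to 0.05 from 0 h to 6 h and from -0.16 to 0.07 from 6 h to 24 h, Jak1 from -0.11 to 0.2 from 0 h to 6 h and from -0.12 to 0.08 from 0 h to 120 h, and Stat3 from -0.17 to 0.07 from 0 h to 120 h. None of these was called. Pim3 from 0 h to 48 h was also not called without the trend or under the joint correction. When a library was left out, the lone one at its time was assumed to vary like the others. The count of the wider list, 26, ran from 22 (4 libraries of a contrast) to 37 (adjusted p < 0.05). The cause of these changes was not tested. With 2 libraries per time, the spread between cultures sets the limit.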
